A study of Mus musculus with 11 samples.

Results

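The 8 genes described here, Csf3r, Cd177, Wfdc21 (listed by the authors under its older symbol 1100001G20Rik), Il1r2, Cd14, Fcgr4, Casp4 and Anxa1, are genes of neutrophils and inflammatory myeloid cells. They were taken by name from the 638 genes of a signature that the authors deposited for progression of a leukaemia-like disease in mice. Expression was measured in granulocyte-macrophage progenitors (GMPs), bone marrow precursors of neutrophils and monocytes, on 11 Affymetrix MG-430 PM arrays with 45037 probe sets. Of these arrays, 4 were labelled Irf8 KO / b-cat(Ex3), 3 Irf8 KO and 4 ctrl. Irf8 KO / b-cat(Ex3) mice were Irf8-/-Ctnnb1(Ex3)∆/+: they lacked Irf8 and had lost exon 3 from 1 allele of Ctnnb1, which encodes beta-catenin, by action of the recombinase MxCre. Irf8 KO mice were Irf8-/-Ctnnb1(Ex3)fl/+, and ctrl mice were MxCre–Ctnnb1(Ex3)fl/+, so every group carried the excisable Ctnnb1 allele, written as excised (∆) in the first group and as unexcised (fl) in the others. The dash after MxCre in the ctrl genotype is taken to mean that ctrl mice lacked the recombinase, since the series text writes a plus there for inducible mice. If it were only a hyphen, injected ctrl mice could also have lost exon 3, and excision was not checked here in any group. Every mouse had been injected with 400 µg poly(I:C), the double-stranded RNA that switches on the interferon-responsive Mx promoter, on days 0, 3 and 5. Their marrow was harvested 10 to 14 days later. The Mx promoter is active in many interferon-responsive cells and not in GMPs alone, and how completely exon 3 was excised in the sorted cells is not given in the sources used here. GMPs were sorted as lineage-negative, Sca-1-negative, c-Kit-positive and CD34-positive cells with high FcγRII/III, from pools of mice that the series text calls independent and the labels call biological replicates.

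Irf8 is a transcription factor that directs myeloid progenitors towards monocytes and dendritic cells, and mice without it accumulate neutrophils in a disease that resembles chronic myeloid leukaemia. Loss of exon 3 removes the sites at which beta-catenin is marked for destruction, so the protein persists and drives Wnt target genes together with TCF/LEF factors. As progenitors mature into neutrophils they are driven by G-CSF, acquire surface glycoproteins and granule proteins, and equip themselves with receptors for bacterial products, antibodies and cytokines. The series asked which expression changes accompany the turn of the Irf8-deficient disease into blast crisis when beta-catenin is stabilised.

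Promoters are shown for the 4 genes in which a searched motif was found, each as the 250 bases before a transcript start of the RefSeq promoter table, 5′ to 3′ on the gene's own strand, on build GRCm38.p6. The start used for Csf3r lies 1218 bases inside the gene's outermost annotated limit and that for Cd177 23 bases inside, while those for Fcgr4 and Anxa1 are at the limit. Csf3r is at chr4:126024409-126024658 on the plus strand, Cd177 at chr7:24760312-24760561 on the minus strand, Fcgr4 at chr1:171018676-171018925 on the plus strand and Anxa1 at chr19:20390672-20390921 on the minus strand. Capitals mark the motif matches.
Csf3r: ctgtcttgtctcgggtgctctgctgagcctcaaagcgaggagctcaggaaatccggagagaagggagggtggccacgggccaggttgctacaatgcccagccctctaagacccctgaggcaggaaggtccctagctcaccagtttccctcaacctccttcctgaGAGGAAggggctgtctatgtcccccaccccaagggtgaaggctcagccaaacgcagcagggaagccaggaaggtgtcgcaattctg
Cd177: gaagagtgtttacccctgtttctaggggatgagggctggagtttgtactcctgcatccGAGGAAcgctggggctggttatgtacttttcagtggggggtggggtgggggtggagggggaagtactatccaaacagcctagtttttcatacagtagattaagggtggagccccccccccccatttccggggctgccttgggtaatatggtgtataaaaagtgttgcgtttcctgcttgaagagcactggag
Fcgr4: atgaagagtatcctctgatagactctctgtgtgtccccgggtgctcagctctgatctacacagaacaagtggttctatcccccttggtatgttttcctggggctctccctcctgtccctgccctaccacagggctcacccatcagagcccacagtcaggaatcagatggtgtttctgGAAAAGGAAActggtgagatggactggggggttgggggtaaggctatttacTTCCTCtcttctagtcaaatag
Anxa1: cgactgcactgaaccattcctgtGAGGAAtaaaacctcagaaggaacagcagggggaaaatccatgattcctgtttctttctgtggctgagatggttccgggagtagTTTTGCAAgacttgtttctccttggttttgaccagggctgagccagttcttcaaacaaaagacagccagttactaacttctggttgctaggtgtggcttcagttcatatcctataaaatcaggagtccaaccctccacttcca
The motifs were C/EBP (TTGCNNAA), ETS/PU.1 (GAGGAA), TCF/LEF (CTTTGAT) and the interferon response element (GAAA, any 2 bases, GAAA), searched on both strands. C/EBP and PU.1 are myeloid transcription factors, and beta-catenin acts through TCF/LEF. The ETS/PU.1 letters were in the promoters of Csf3r (86 to 81 bases before the start), Cd177 (192 to 187), Anxa1 (227 to 222) and, on the opposite strand, Fcgr4 (22 to 17). Those letters occur in 23.3% of the 32851 promoters of the table. The C/EBP letters were in Anxa1 alone of the members searched (143 to 136 bases before the start, opposite strand), against 9.6% of all promoters, and the interferon response letters in Fcgr4 alone (73 to 64), against 3.0%. The TCF/LEF letters, present in 3.2% of all promoters, were in 0 of the 7 promoters searched, which belong to 6 of the 8 genes. The promoters of Il1r2 (from a start 1401 bases inside the gene) and both of Casp4 held none of the 4 motifs, and the matches in Fcgr4 and Anxa1 do not overlap each other. A match is a description of the letters and not evidence of binding.

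The deposited signature names neither its 2 groups nor its direction, and both could be read from the array values. For 638 of its 638 genes, the linear fold in the authors' deposited table, taken to log2, equalled the Irf8 KO / b-cat(Ex3) mean minus the ctrl mean of 1 probe set to within 1e-08 on the log2 scale. The corresponding count was 0 for Irf8 KO / b-cat(Ex3) against Irf8 KO and 0 for Irf8 KO against ctrl. Positive values therefore mean higher in Irf8 KO / b-cat(Ex3) than in ctrl GMPs, and each of the 638 genes is tied to 1 probe set. Only these 638 genes can be named here, of which 394 were positive and 244 negative. The smallest absolute log2 fold in the authors' deposited table was 0.586 and the largest p-value 0.0016, so the 8 genes were chosen on the Irf8 KO / b-cat(Ex3) and ctrl arrays, and their difference between those groups is given as a description with no test. Whether the Irf8 KO arrays also entered the authors' selection is not given in the sources used here.

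All arrays resembled the others of their group, with a Pearson correlation of 0.983 to 0.996 against the mean of the rest of the group over all probe sets, lowest for Irf8 KO / b-cat(Ex3) replicate 2. Array medians lay between 3.92 and 4.09 on the log2 scale. The Irf8 probe set read 8.35, 8.63, 7.51 and 7.77 in Irf8 KO / b-cat(Ex3), 8.60, 7.90 and 8.89 in Irf8 KO, and 9.38, 9.46, 9.78 and 9.23 in ctrl GMPs. Both knockout groups lay below ctrl on every array, but whether this probe set lies in the deleted part of Irf8 is not given here, so it does not check the labels. Of the 7 genes fixed as markers of the sorting gate (Kit, Cd34, Fcgr3, Fcgr2b, Ly6a, Mpo and Elane), 0 are among the named genes, and the gate was not checked here. All levels below are log2 array values of 1 probe set per gene, which may be compared between arrays but not between genes. In bulk RNA of sorted cells, fewer cells of a type and less RNA per cell cannot be told apart.

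All 8 genes stood highest on average in Irf8 KO / b-cat(Ex3), lower in Irf8 KO and lowest in ctrl GMPs. The growth factor receptor comes first. Csf3r encodes the receptor for G-CSF, the cytokine that drives neutrophil production. It lies at chr4:126023441-126044975 (GRCm38.p6). Csf3r read 7.37, 7.22, 7.45 and 7.42 in Irf8 KO / b-cat(Ex3), 7.26, 7.23 and 7.09 in Irf8 KO, and 6.32, 6.90, 6.60 and 6.72 in ctrl GMPs. Every array of both knockout groups lay above every ctrl array, and the 2 knockout groups overlapped. The means were 7.36 ± 0.10 (SD, n = 4) in Irf8 KO / b-cat(Ex3), 7.19 ± 0.09 (SD, n = 3) in Irf8 KO and 6.64 ± 0.24 (SD, n = 4) in ctrl GMPs, the tightest of the set in both knockout groups.

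Cd177 and Wfdc21 encode products of maturing neutrophils. Cd177 is a glycosylphosphatidylinositol-anchored glycoprotein of the neutrophil surface, at chr7:24743983-24760334. Cd177 read 7.55, 7.35, 8.76 and 9.57 in Irf8 KO / b-cat(Ex3), 7.54, 6.75 and 6.32 in Irf8 KO, and 3.76, 4.17, 3.73 and 6.82 in ctrl GMPs. A single ctrl array, replicate 4, reached into the range of the Irf8 KO arrays, and the other 3 ctrl arrays lay far below it. Its means were 8.31 ± 1.05 (SD, n = 4) in Irf8 KO / b-cat(Ex3), 6.87 ± 0.62 (SD, n = 3) in Irf8 KO and 4.62 ± 1.48 (SD, n = 4) in ctrl GMPs, and its fold of 12.9 ranked 1 of the 394 positive values that the authors' deposited table holds.

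Wfdc21, at chr11:83746940-83752646, belongs to the whey acidic protein family of small secreted proteins. It read 10.08, 9.88, 10.65 and 11.03 in Irf8 KO / b-cat(Ex3), 10.22, 10.08 and 8.74 in Irf8 KO, and 6.66, 8.54, 7.0 and 9.22 in ctrl GMPs. Irf8 KO replicate 3 fell inside the ctrl range, whose ends were replicates 1 and 4. The Wfdc21 means were 10.41 ± 0.53 (SD, n = 4) in Irf8 KO / b-cat(Ex3), 9.68 ± 0.82 (SD, n = 3) in Irf8 KO and 7.86 ± 1.22 (SD, n = 4) in ctrl GMPs.

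Il1r2, Cd14 and Fcgr4 encode receptors of the inflammatory response. Il1r2, at chr1:40084692-40125230, is a decoy that binds interleukin-1 without signalling. Il1r2 read 3.26, 3.40, 6.49 and 6.32 in Irf8 KO / b-cat(Ex3), 2.46, 3.46 and 2.60 in Irf8 KO, and 2.12, 2.09, 2.31 and 2.22 in ctrl GMPs. Replicates 3 and 4 of Irf8 KO / b-cat(Ex3) stood apart from every other array, whereas replicates 1 and 2 lay below Irf8 KO replicate 2. Among all values of an array this probe set stood at percentile 36.7 to 78.0 in Irf8 KO / b-cat(Ex3), 18 to 40.4 in Irf8 KO and 10.2 to 14.6 in ctrl GMPs. It was thus dim, below the array median, on every ctrl and Irf8 KO array and in Irf8 KO / b-cat(Ex3) replicates 1 and 2. The Il1r2 means were 4.87 ± 1.77 (SD, n = 4) in Irf8 KO / b-cat(Ex3), 2.84 ± 0.54 (SD, n = 3) in Irf8 KO and 2.19 ± 0.10 (SD, n = 4) in ctrl GMPs, so the group with the highest level also had the widest spread of any gene in the set.

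Cd14, at chr18:36725064-36726815, binds bacterial lipopolysaccharide and hands it to its signalling receptor. The Cd14 values were 5.81, 6.32, 7.65 and 6.53 in Irf8 KO / b-cat(Ex3), 5.49, 6.46 and 5.52 in Irf8 KO, and 5.54, 5.14, 4.00 and 5.12 in ctrl GMPs. Neighbouring groups overlapped, with the highest ctrl array just above the 2 lower Irf8 KO arrays. Its means were 6.58 ± 0.78 (SD, n = 4) in Irf8 KO / b-cat(Ex3), 5.83 ± 0.55 (SD, n = 3) in Irf8 KO and 4.95 ± 0.67 (SD, n = 4) in ctrl GMPs.

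Fcgr4, at chr1:171018926-171029761, encodes an activating Fc receptor for immunoglobulin G and is distinct from the FcγRII/III used in the sort. It read 5.98, 5.79, 6.60 and 6.84 in Irf8 KO / b-cat(Ex3), 6.48, 5.64 and 5.00 in Irf8 KO, and 4.38, 4.93, 4.56 and 5.50 in ctrl GMPs. The 3 Irf8 KO arrays bridged the other groups, the lowest lying within the ctrl range and the highest within that of Irf8 KO / b-cat(Ex3). Fcgr4 averaged 6.30 ± 0.50 (SD, n = 4) in Irf8 KO / b-cat(Ex3), 5.71 ± 0.74 (SD, n = 3) in Irf8 KO and 4.84 ± 0.50 (SD, n = 4) in ctrl GMPs.

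Casp4 and Anxa1 encode effector proteins. Casp4, at chr9:5308849-5336791, is the mouse inflammatory caspase also known as caspase-11, which detects cytosolic lipopolysaccharide. Casp4 read 7.35, 7.05, 8.01 and 7.94 in Irf8 KO / b-cat(Ex3), 7.93, 7.44 and 7.26 in Irf8 KO, and 6.24, 6.71, 6.01 and 6.23 in ctrl GMPs. Both knockout groups covered nearly the same range, and each lay above ctrl on every array. The means were 7.59 ± 0.46 (SD, n = 4) in Irf8 KO / b-cat(Ex3), 7.55 ± 0.35 (SD, n = 3) in Irf8 KO and 6.30 ± 0.30 (SD, n = 4) in ctrl GMPs.

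Anxa1, at chr19:20373434-20390671, is a phospholipid-binding protein that limits neutrophil recruitment through formyl peptide receptors. Its values were 10.07, 10.05, 10.67 and 10.66 in Irf8 KO / b-cat(Ex3), 10.13, 10.23 and 9.63 in Irf8 KO, and 9.16, 9.23, 9.24 and 9.73 in ctrl GMPs. It was bright everywhere, at or above percentile 95.9 of each array. Irf8 KO replicate 3 lay just below ctrl replicate 4, and the means were 10.36 ± 0.35 (SD, n = 4) in Irf8 KO / b-cat(Ex3), 10.00 ± 0.32 (SD, n = 3) in Irf8 KO and 9.34 ± 0.26 (SD, n = 4) in ctrl GMPs.

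**Figure D1:**
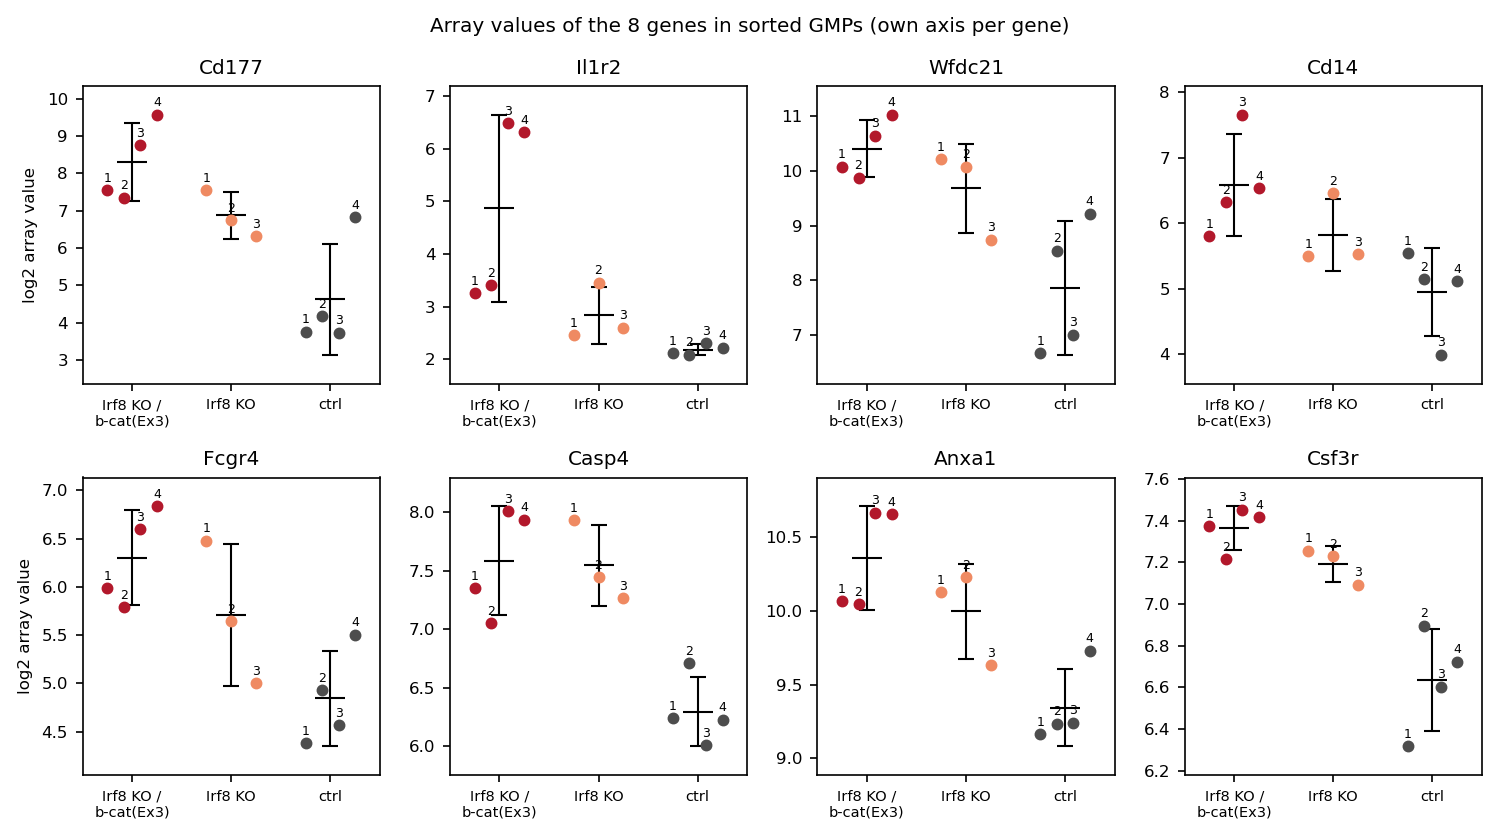
Log2 array value (vertical axis, own scale per gene) of each of the 8 genes on the 11 arrays, numbered by replicate, with the group mean and SD as bars. All 8 genes have their highest mean in Irf8 KO / b-cat(Ex3) and their lowest in ctrl GMPs. Il1r2 is split between replicates 1 and 2 (3.26 and 3.40) and replicates 3 and 4 (6.49 and 6.32) of Irf8 KO / b-cat(Ex3).

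In the contrast by which they were chosen, Irf8 KO / b-cat(Ex3) against ctrl, the log2 differences were 3.69 for Cd177, 2.68 for Il1r2, 2.56 for Wfdc21, 1.63 for Cd14, 1.46 for Fcgr4, 1.29 for Casp4, 1.02 for Anxa1 and 0.73 for Csf3r. The groups did not overlap for any of the 8, beside 6.81% of all probe sets, and all 8 were past the limma threshold, beside 3.41%. Because the choice fixed both outcomes, nothing is read from them. By fold these genes ranked between 1 and 290 of the 638 in the authors' deposited table, but by p-value only between 268 (Il1r2) and 601 (Fcgr4). Cd177 was first by fold and position 415 by p-value in the authors' deposited table, beside its wide spread over the arrays of 2 of the groups.

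The question left by that table is how much of each difference was also found between Irf8 KO and ctrl GMPs, whose Ctnnb1 allele is written as unexcised in both. The groups are separate mice and not successive samples of the same ones. Casp4 rose in Irf8 KO GMPs, 2.38-fold over ctrl, and none of the other 7 genes passed the test. The log2 difference of Casp4 was 1.25 (SE 0.25, 95% interval 0.71 to 1.79; limma, Benjamini-Hochberg adjusted p = 0.0258 over 45037 probe sets), with 3 of 3 Irf8 KO arrays above all ctrl arrays. Among all probe sets 0.81% were called higher in this comparison, against 1 of the 8 genes. The Casp4 call was lost when Irf8 KO replicate 1 (adjusted p = 0.139), Irf8 KO replicate 2 (0.0779), ctrl replicate 1 (0.0782) or ctrl replicate 3 (0.0824) was left out of the limma fit, with log2 differences of 1.06 to 1.30.

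Larger differences on wider spreads stood below the threshold. Cd177 was 4.77-fold higher in Irf8 KO than in ctrl GMPs, a log2 difference of 2.25 (95% interval 0.67 to 3.83; limma, adjusted p = 0.18), and Wfdc21 was 3.54-fold higher, at 1.83 (0.57 to 3.08; limma, adjusted p = 0.169). Csf3r came nearest to the threshold, with a log2 difference of 0.56 (0.27 to 0.85; limma, adjusted p = 0.0609). Anxa1 differed by 0.66 (limma, adjusted p = 0.181), Cd14 by 0.87 (adjusted p = 0.438) and Fcgr4 by 0.86 (adjusted p = 0.331). The difference of Il1r2 was 0.65, with an interval from -0.88 to 2.19 that spans 0 (limma, adjusted p = 0.785). That interval rests on a spread shared by all 3 groups. The SDs of Il1r2 were 1.77 in Irf8 KO / b-cat(Ex3), 0.54 in Irf8 KO and 0.10 in ctrl GMPs. With only the 2 compared groups fitted it was still not called (limma, adjusted p = 0.189). Before adjustment 6 of the 8 had p under 0.05, against 6.7% of all probe sets, and 7 were at least 1.5-fold higher, against 2.17%. Both shares count genes chosen with the same ctrl arrays, so they are not independent of the choice.

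Ctrl replicate 4 bore on these counts. Irf8 KO and ctrl arrays did not overlap for 3 genes (Il1r2, Casp4 and Csf3r), beside 6.92% of probe sets, and without ctrl replicate 4, a setting added after its values were seen, for 7 genes (all but Cd14), beside 12.6%. The Il1r2 values were dim in both groups. Without ctrl replicate 4 limma called 3 genes higher in Irf8 KO: Casp4, Cd177 with a log2 difference of 2.99 (adjusted p = 0.0123) and Wfdc21 with 2.28 (adjusted p = 0.0442). Calls also rose over all 45037 probe sets, with 571 called higher, beside 365 with all arrays. The correlation of ctrl replicate 4 with the mean of the other ctrl arrays, 0.987, was the lowest of its group.

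Between Irf8 KO / b-cat(Ex3) and Irf8 KO, which by their genotypes differ in the excision of Ctnnb1 exon 3, no gene of the set passed the test. Under limma with Benjamini-Hochberg adjustment 0 of the 8 were called, beside 0.00222% of all probe sets called higher (1 of 45037), 1 of the 8 had an unadjusted p under 0.05, beside 3.88%, and 5 were at least 1.5-fold higher, beside 0.746%. That gene was Il1r2, 4.07-fold higher in Irf8 KO / b-cat(Ex3), a log2 difference of 2.03 (95% interval 0.49 to 3.56; limma, unadjusted p = 0.014, adjusted p = 0.603). Its 2 high values in Irf8 KO / b-cat(Ex3) are those of replicates 3 and 4, and its other values in these groups were dim, below the array median. Cd177 was 2.71-fold higher, at 1.44 (-0.14 to 3.02; limma, adjusted p = 0.735). The log2 differences of the next genes were 0.75 for Cd14 (adjusted p = 0.768), 0.73 for Wfdc21 (0.832), 0.59 for Fcgr4 (0.781) and 0.36 for Anxa1 (0.769), all from the same limma fit.

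The smallest differences of this comparison were those of Csf3r and Casp4. Csf3r differed by 0.17 on the log2 scale (95% interval -0.12 to 0.46; limma, adjusted p = 0.826). Casp4 differed by 0.04 (-0.50 to 0.59; limma, adjusted p = 0.983), and its sign turned with the normalization and with the arrays included. Arrays of the 2 knockout groups overlapped for all 8 genes, beside 3.67% of probe sets on which every Irf8 KO / b-cat(Ex3) array lay above every Irf8 KO array. A value that misses the threshold with 4 and 3 arrays does not show that the groups were alike, and the intervals of Il1r2 and Cd177 reach beyond 3 log2 units.

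**Figure D2:**
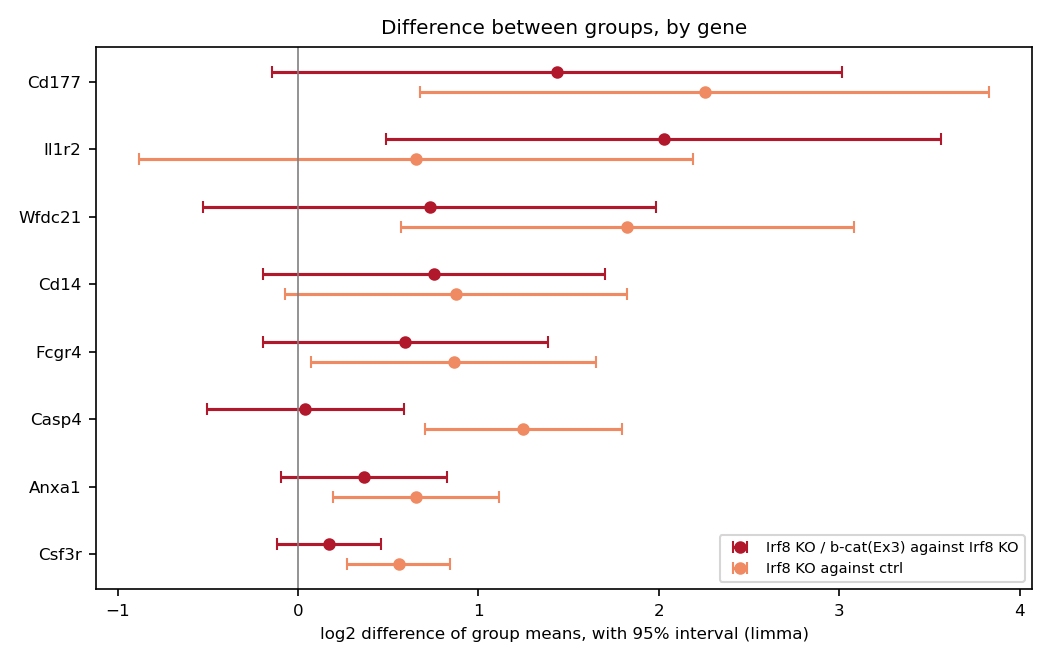
Log2 difference of group means (horizontal axis) with its 95% interval from limma for each gene, for Irf8 KO / b-cat(Ex3) against Irf8 KO (dark red) and Irf8 KO against ctrl (orange). Il1r2 alone has an interval above 0 for the first of these, from 0.49 to 3.56, and Casp4 is at 0.04 there and at 1.25 in the second.

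The 8 genes differed in where the Irf8 KO mean stood between the other 2 means. The difference of Irf8 KO from ctrl amounted to 24.4% of the whole difference for Il1r2, 53.7% for Cd14, 59.3% for Fcgr4, 61.1% for Cd177, 64.3% for Anxa1, 71.5% for Wfdc21, 76.4% for Csf3r and 96.8% for Casp4. Il1r2 and Casp4 were thus the extremes, and the other 6 lay between 53.7 and 76.4%. The median of 62.7% over the 8 stood beside 62.8% over the 386 other positive genes of the signature (quartiles 47.6 and 75.5%). The Irf8 KO mean lay between the other means for 8 of 8 genes, beside 608 of all 638 signature genes (95.3%) and 83.9% of the 3431 probe sets at least 1.5-fold apart between Irf8 KO / b-cat(Ex3) and ctrl GMPs. These percentages share arrays between their parts and carry no test.

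Both comparisons share arrays with the contrast that chose the genes. A further contrast was therefore added after the data were seen: the Irf8 KO mean minus the midpoint of the other 2 group means. Its estimate is unrelated to the difference between those 2 groups only where their spreads are alike. For Il1r2 their SDs were 1.77 in Irf8 KO / b-cat(Ex3) and 0.10 in ctrl GMPs, so its value is not free of the choice. The SDs of these groups, in the same order, were also unlike for Wfdc21 (0.53 and 1.22), Csf3r (0.10 and 0.24) and Casp4 (0.46 and 0.30). Their values are therefore not fully free of the choice either. Casp4 lay 0.60 above the midpoint on the log2 scale (95% interval 0.12 to 1.09; limma, unadjusted p = 0.0183, adjusted p = 0.593). Il1r2 lay 0.69 below it, at -0.69 (-2.05 to 0.67; limma, adjusted p = 0.896). The other 6 were between 0.06 (Cd14) and 0.55 (Wfdc21) above it. Limma called 0 of the 8 genes, beside 0.0289% of all probe sets called higher, and 1 had an unadjusted p under 0.05, beside 3.51%, so the contrast between Casp4 and Il1r2 is a difference in values that passed no test.

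**Figure D3:**
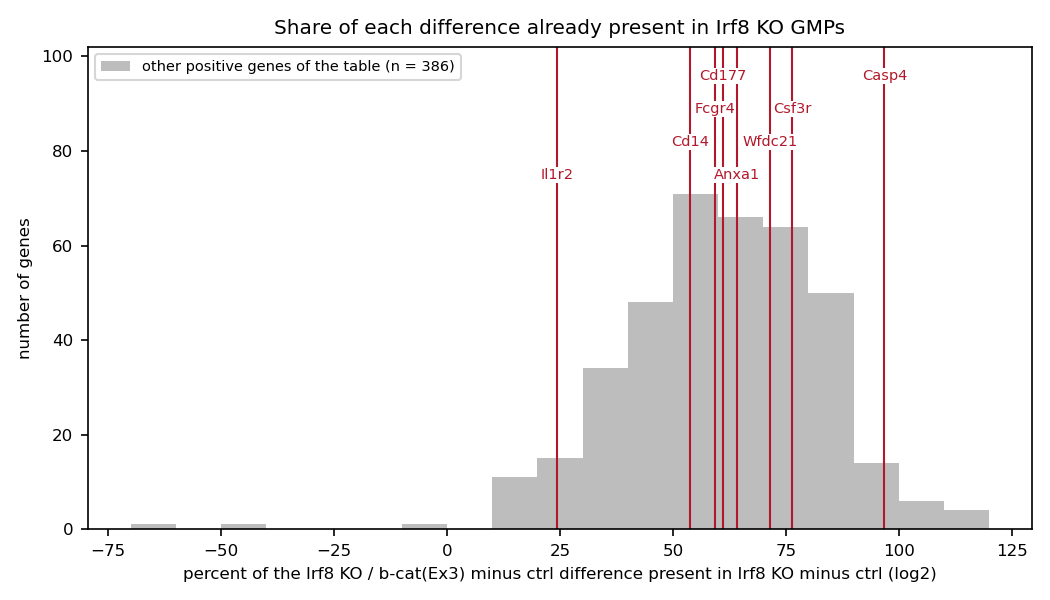
Percent of the log2 difference between Irf8 KO / b-cat(Ex3) and ctrl GMPs that was present between Irf8 KO and ctrl GMPs (horizontal axis), for the 8 genes (red lines) and as a count of genes for the 386 other positive genes of the signature (grey bars). Il1r2 stands at 24.4% and Casp4 at 96.8%, and the other 6 genes lie between 53.7 and 76.4%.

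Median log2 differences over the 8 genes were larger than those of the other 386 positive signature genes in both comparisons: 0.66 against 0.33 for Irf8 KO / b-cat(Ex3) against Irf8 KO, and 0.87 against 0.56 for Irf8 KO against ctrl. Over all probe sets the medians were 0.00 and 0.01 for these comparisons, and no test was made of the lists. In Irf8 KO / b-cat(Ex3) against ctrl, by which all these genes were chosen, the medians were already 1.54 against 0.89. Both comparisons are parts of that difference, so their larger medians are not a separate result. In Irf8 KO against ctrl limma called 59 of the 394 positive signature genes higher, beside 0.81% of all probe sets. In Irf8 KO / b-cat(Ex3) against Irf8 KO it called 1 of 394, beside 0.00222%. The 394 genes were chosen as higher in Irf8 KO / b-cat(Ex3) than in ctrl GMPs on the same arrays, so these counts are not independent of that choice.

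Within Irf8 KO / b-cat(Ex3) the 8 genes shared much of their order over the arrays. Replicates 3 and 4 of Irf8 KO / b-cat(Ex3) were both above replicates 1 and 2 for 8 of 8 genes, an order seen in 17.7% of all probe sets and in 31.3% of the other positive signature genes. Only this split of the group was counted, and it was not among the planned results. Replicate 2 of that group was the lowest for 6 of the 8, beside 26.0% of all probe sets and 36.0% of the other positive signature genes. Irf8 KO replicate 3 was the lowest of its group for 6 of the 8, beside 35.3% of all probe sets and 62.4% of the other positive signature genes. Ctrl replicate 4 was the highest of its group for 4 of the 8, beside 33.9% and 73.3%. Neither of these orders in Irf8 KO and ctrl GMPs was clearly more frequent in the 8 genes than in the other positive signature genes. The genes of the set share these arrays, so they are not separate observations of the order.

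Genes of the same pathways were counted in lists chosen for the biology of each member. Such genes can be named only through the signature, which was chosen on the same ctrl arrays. Their calls and the order of their arrays are therefore not independent of that choice. Of the 21 neutrophil surface and chemotactic receptors 2 were in the signature, Cd177 and Trem3, an activating receptor of myeloid cells. Trem3 rose in Irf8 KO against ctrl GMPs by a log2 difference of 1.23 (SE 0.17, limma, adjusted p = 0.00253). Among all probe sets 0.81% were called higher there. Trem3 read 9.86, 9.66, 9.96 and 10.07 in Irf8 KO / b-cat(Ex3), 9.80, 9.78 and 9.34 in Irf8 KO, and 8.09, 8.66, 8.31 and 8.57 in ctrl GMPs. Every array of either knockout group thus lay above every ctrl array. Such an order held for 6.81% of all probe sets in Irf8 KO / b-cat(Ex3) and 6.92% in Irf8 KO.

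Of the 10 genes listed for primary granule proteins 2 were in the signature. Serpinb1a, a protease inhibitor rather than a granule product, was positive, at 0.81 for Irf8 KO against ctrl (limma, adjusted p = 0.0664). The granule protease activator Ctsc was negative, at -0.995 in the same comparison (limma, adjusted p = 0.184). Wfdc21 was the 1 gene of 19 secondary and tertiary granule proteins. In neither comparison was a gene of the granule lists called. Before adjustment (limma p under 0.05) Serpinb1a was higher in both, and in Irf8 KO against ctrl Wfdc21 was higher and Ctsc lower. Of all probe sets, 3.88% were higher at that level in Irf8 KO / b-cat(Ex3) against Irf8 KO. In Irf8 KO against ctrl 6.7% were higher and 6.22% lower. Of 13 transcription factors listed for granulocyte fate, Irf8 and Klf4 were in the signature, both negative. Neither stands for granulocyte maturation. Irf8, the gene knocked out, directs progenitors towards monocytes and dendritic cells. Klf4, which promotes monocyte differentiation, fell by 3.01 on the log2 scale in Irf8 KO against ctrl (limma, adjusted p = 0.0036). In that comparison 0.941% of all probe sets were called lower.

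The other 5 pathway lists held few named genes. Il1r2 was the 1 of 18 genes of the interleukin-1 system, and Fcgr4 the 1 of 11 Fc receptor genes. Lipopolysaccharide sensing had 2 of 14, Cd14 and the lipopolysaccharide-binding protein Lbp, which was positive and not called (Irf8 KO against ctrl 0.61; limma, adjusted p = 0.115). Among 16 inflammasome genes were Casp4 and the interferon-inducible GTPase Gbp3. Gbp3 fell by 0.70 on the log2 scale in Irf8 KO against ctrl (limma, adjusted p = 0.0283), beside 0.941% of all probe sets called lower. The Gbp3 call was lost without Irf8 KO replicate 2 (adjusted p = 0.125) or 3 (0.107), or without ctrl replicate 1 (0.0936), 2 (0.0563) or 3 (0.0918). The annexin list held 3 of 15, with Anxa2 positive at 0.29 and Anxa6 negative at -0.29 beside Anxa1, none of them called. In Irf8 KO / b-cat(Ex3) against Irf8 KO, limma called 0 of the 18 signature genes in the 10 pathway lists, that of G-CSF receptor signalling included. Among all probe sets 0.00222% were called higher there. Before adjustment 3 of the 18 were higher (Il1r2, Serpinb1a and Anxa2) and 1 lower (Anxa6) at p under 0.05. The shares over all probe sets were 3.88% higher and 3.18% lower. List genes outside the signature are not analysed here, among them the partners Il1r1, Il1rap, Tlr4, Ly96, Fcer1g, Fpr1, Fpr2, Csf3, Gsdmd and Casp1.

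Markers of other cell types that the signature holds were all negative there apart from Adgre1, whereas the 8 genes were positive. Marker levels are linear array values, summed where a list held several, so brighter probe sets weigh most in a sum. Such sums are compared between arrays only and do not stand for each gene. Summed values of the 2 erythroid and megakaryocyte markers in the signature (Gata1 and Car1, of 12 listed) ranged from 16.3 to 20.4 in Irf8 KO / b-cat(Ex3), 18.4 to 22.2 in Irf8 KO and 64.2 to 146 in ctrl GMPs. In Irf8 KO against ctrl, limma called both lower, by 1.27 for Gata1 (adjusted p = 0.000432) and 2.95 for Car1 (adjusted p = 0.000489), beside 0.941% of all probe sets called lower. The 4 stem and multipotent progenitor markers (Hoxa9, Cd27, Sox4 and Tal1, of 11) summed to 112 to 252 in Irf8 KO / b-cat(Ex3), 310.2 to 578 in Irf8 KO and 499.9 to 705 in ctrl GMPs, with 0 called by limma in either comparison. Before adjustment (limma p under 0.05) 4 of them were lower in Irf8 KO / b-cat(Ex3) against Irf8 KO, beside 3.18% of all probe sets, and 3 in Irf8 KO against ctrl, beside 6.22%. These markers are named only because the signature, chosen on the same Irf8 KO / b-cat(Ex3) and ctrl arrays, lists them as negative, so neither count is independent of that choice. Mcpt8, a basophil protease and the 1 of 9 basophil, mast and eosinophil markers, ranged from 59.6 to 112 in Irf8 KO / b-cat(Ex3), 85.9 to 164 in Irf8 KO and 176 to 431 in ctrl GMPs.

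Monocyte and macrophage markers were split in sign. Of 10, the surface antigen Adgre1 was positive (Irf8 KO against ctrl 0.80, limma, adjusted p = 0.283) and Klf4 negative. Their sum ranged from 41.3 to 54.7 in Irf8 KO / b-cat(Ex3), 32.6 to 69.0 in Irf8 KO and 166 to 247 in ctrl GMPs. It is mostly Klf4 in ctrl GMPs and does not stand for both genes. In Irf8 KO / b-cat(Ex3), Irf8 KO and ctrl GMPs the log2 means were 4.12, 4.58 and 7.59 for Klf4. Those of Adgre1 were 4.73, 4.22 and 3.42. Of 10 dendritic cell markers Tcf4 alone was listed, at 52.5 to 72.6 in Irf8 KO / b-cat(Ex3), 75.8 to 109.5 in Irf8 KO and 80.6 to 98.1 in ctrl GMPs. Of 16 lymphoid markers Thy1 alone was, at 4.5 to 6.8 in Irf8 KO / b-cat(Ex3), 7.0 to 7.5 in Irf8 KO and 8.2 to 22.3 in ctrl GMPs. An array value has no true zero, so absence of a marker cannot be read from it. The part of other cell types in the values of the 8 genes was not tested.

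**Figure D4:**
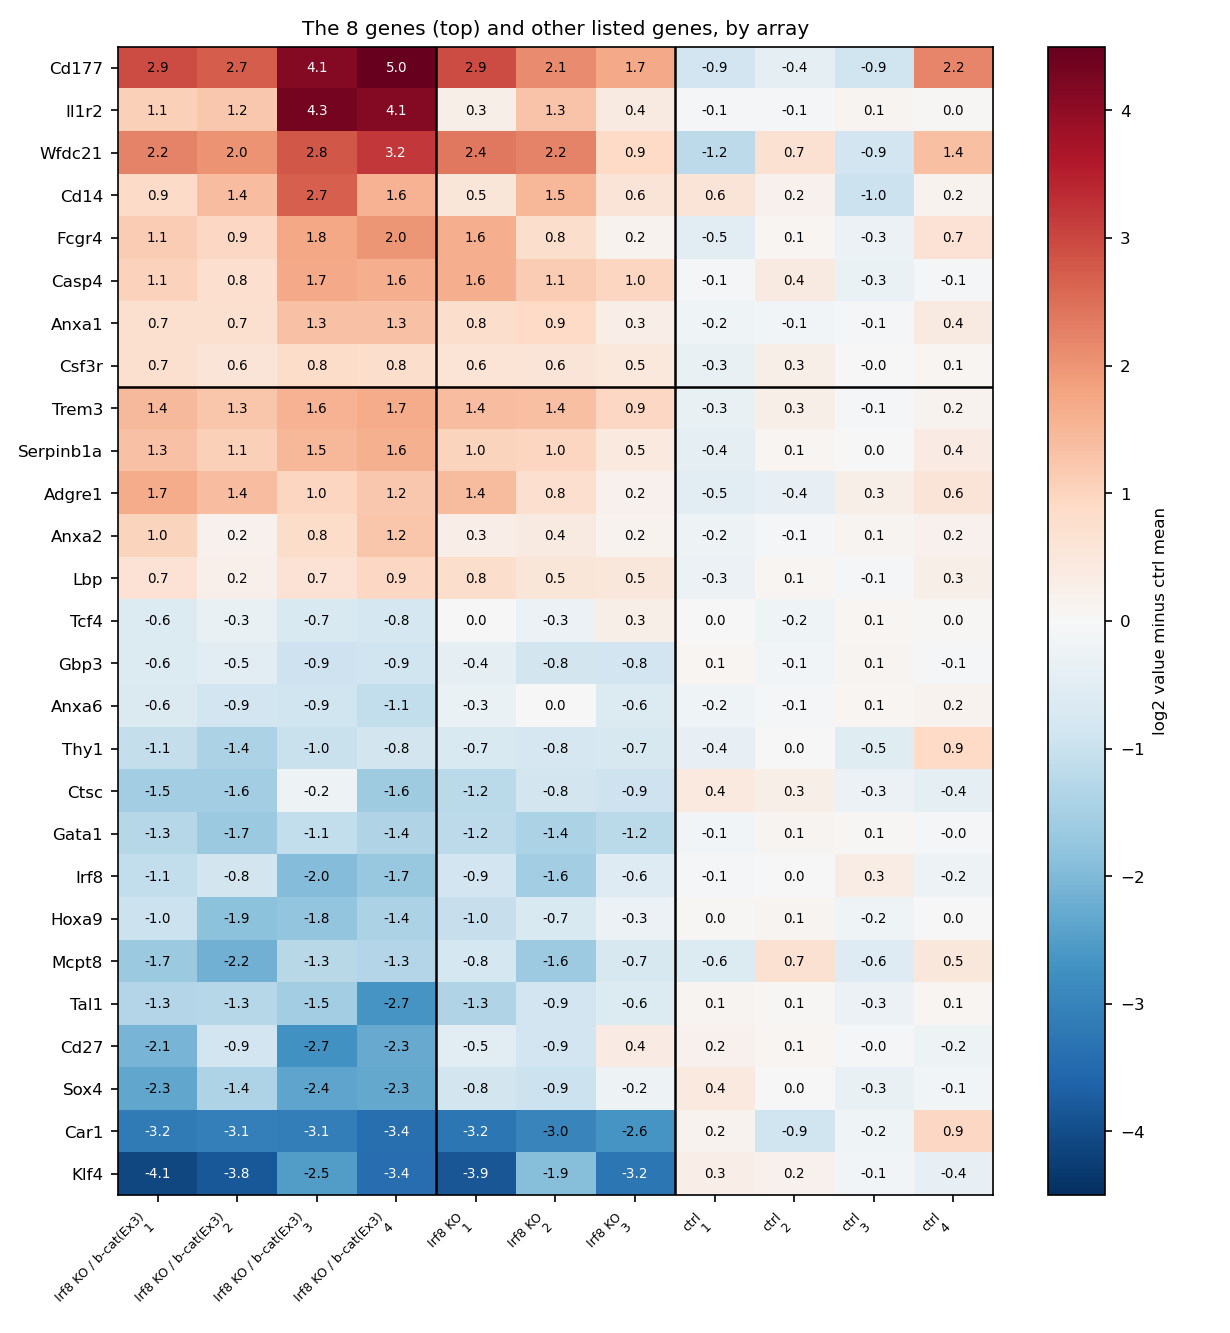
Log2 value minus the ctrl mean (colour and printed number) on each of the 11 arrays for the 8 genes (above the line) and other listed pathway and marker genes of the signature (below it). Cd177 in ctrl replicate 4 is the largest departure among the ctrl arrays, and Klf4 and Car1 are the lowest genes in both knockout groups.

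Among the 526 named genes with a mean above the median of all values, Pearson correlation over the 11 arrays gave the profiles most like the mean of the 8. They were the sterol desaturase Sc5d (0.983), Slfn4 of the Schlafen family (0.976), Rflnb (0.975), the sorting receptor Sorl1 (0.975) and the glycolytic regulator Pfkfb4 (0.974). For single genes of the set the closest were Trem3 for Csf3r (0.978), Sc5d for Wfdc21 (0.980), Mapk13 for Il1r2 (0.936), Rhou for Fcgr4 (0.981), 9530053H05Rik for Casp4 (0.951) and Klf7 for Anxa1 (0.976). The 11 points fall into 3 groups and every candidate was itself chosen for its difference between Irf8 KO / b-cat(Ex3) and ctrl GMPs, which alone raises these correlations. They are descriptions and carry no test.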

How the data were processed

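The deposited value table holds 1 log2 value per probe set and array. Its scale was read from the values, while the sources used here do not give the probe set summary and normalization. Per the labels' protocols, RNA was extracted with RNeasy columns and amplified from very small inputs with the NuGEN Pico WTA system. The authors' signature table gives, per the file headers, a log2 fold change, its linear fold and a p-value per gene, whose test the sources used here do not give. Gene names come from that table alone, through the numerical match described in the report, so members have 1 probe set each and not the brightest of several as had been planned. Current symbols were found in RefSeq (GRCm38.p6) for 621 of 638 genes.

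From these values limma 3.58.1 (R 4.3.3; lmFit and eBayes, 3 groups in 1 fit, Benjamini-Hochberg over 45037 probe sets, called at adjusted p under 0.05) gave the tests, and was tried on simulated data. The number of arrays limits the precision. Python 3.11.15 with pandas 2.3.3 and matplotlib 3.10.9 did the rest. Named genes are the 8 members, list genes called in a contrast, and the genes of most similar profile. Other list genes are named because each list had at most 4 in the signature, a choice made after their values were seen. The members, lists and motifs were chosen with earlier results of these data known. Alternatives were quantile normalization, a filter on dim probe sets, a replicate block, array weights, an intensity trend, fits of 2 groups, a 1.5-fold minimum and leaving out each array. GMPs with stabilised beta-catenin alone, named in the series text, are not analysed here. Some further genes are not reported here.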

Additional observations from a re-analysis of the deposited data

Results flagged for a closer look

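The Cd177 value of ctrl replicate 4, 6.82 on the log2 scale, stood apart from the other 3 ctrl arrays, which lay between 3.73 and 4.17. The gap was 0.857 of the range of the group, above Dixon's 95% critical value for 4 samples.

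The Anxa1 value of the same array, 9.73, stood apart from the other 3 at 9.16 to 9.24, with a gap of 0.862 of the range. These were 2 of the 16 groups of 4 arrays examined, and chance marks about 1 group in 20. Both are from 1 array, and the cause was not tested.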

How the results depend on the processing

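Over 429 recomputed member values, 392 kept direction and side of the threshold, 23 lost and 8 gained a call, and 6 turned sign, all of them Casp4 in Irf8 KO / b-cat(Ex3) against Irf8 KO: -0.014 under quantile normalization, -0.005 with the replicate block, and -0.1 to 0.234 without single arrays, below 0 without Irf8 KO / b-cat(Ex3) replicate 3 or 4 or Irf8 KO replicate 2 or 3. For Irf8 KO / b-cat(Ex3) against Irf8 KO, 2 probe sets were called, 0 with only the 2 groups fitted and 1 to 10 when single arrays were left out, and 0 members in every setting. For Irf8 KO against ctrl, 789 were called, 1658 with array weights and 347 to 1039 without single arrays. Members called there numbered 1, 2 without dim probe sets (24065 of 45037 kept, Il1r2 not among them), 4 with array weights and 0 to 3 without single arrays (3 without ctrl replicate 4). Members not overlapping there numbered 3, and 7 without ctrl replicate 4. For Irf8 KO / b-cat(Ex3) against ctrl, 2761 were called, 4395 with array weights and 1477 to 3673 without single arrays, with 8 members and 4 to 8 (4 without ctrl replicate 3). The signature's log2 fold column, which is rounded unlike its linear fold, differed from the array means by a median of 0.000252, and by 0.0411 after quantile normalization. Replicate numbers did not pair the arrays: same-numbered arrays of different groups had correlations of -0.228 to 0.171 in their deviations. With the replicate block 658 probe sets were called in Irf8 KO against ctrl, Cd177 gained the call (2.83; limma, adjusted p = 0.018) and Casp4 lost it (adjusted p = 0.0742, range over alternatives 0.0113 to 0.139). Trem3, Klf4, Gata1 and Car1 kept theirs in 18 of 18 alternatives, added after the data were seen, and Gbp3 in 13. Causes were not tested. Means over several probe sets per gene, and other choices among them, were not run, because each gene can be named on 1. With 3 or 4 arrays per group and SDs above 1 log2 unit for Cd177 and Il1r2 in Irf8 KO / b-cat(Ex3), small differences in these genes lie within the spread.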
